A study of Mus musculus with 6 samples.

Results

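The genes described here are 10 regulators of the mTOR pathway and of TOP mRNAs: Larp1, Mtor, Rptor, Rictor, Eif4ebp1, Eif4ebp2, Rps6kb1, Tsc1, Tsc2 and Rheb. The genes were chosen by name, with earlier results of these data known. They were found by gene symbol and identifier among 46983 genes counted by RNA sequencing of naïve mouse CD4 T cells. All 10 passed the filter on low counts that left 12336 genes for testing. The study compared cells from mice with loxP sites around exon 3 of Rnmt and no Cre, here called control and labelled Rnmt fl/fl CD4cre -, with cells from mice that carried the same floxed alleles and a Cre transgene, here called Rnmt cKO. RNMT is the enzyme that methylates the guanosine cap of RNA polymerase II transcripts, and the comparison asks which transcripts depend on it in resting T cells. There were 3 libraries in each group, all labelled male. The mice were kept on a C57B6/J background according to the study's methods, and no age is given in the labels.

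Cre was driven by Cd4 regulatory sequence, which acts in developing T cells of both the CD4 and CD8 lineages, so that recombination begins in the thymus. Only the Rnmt cKO mice carried the transgene, so effects of Cre and of Rnmt loss cannot be told apart. Cells were sorted from lymph nodes as living TCRb+ CD4+ CD62L+ CD44- cells, and RNA was depleted of ribosomal RNA before sequencing. Sense counts in genes ranged from 8873413 to 11277764 per library. The labels number the libraries but do not tie them to separate animals. The p-values therefore set group differences against variation between libraries, which the labels do not show to be variation between animals. Because each library pools many cells, fewer cells of a type and less RNA per cell cannot be told apart.

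mTOR is a serine/threonine kinase that works in separate complexes. In complex 1, which holds raptor, it responds to amino acids and growth factors and switches on protein synthesis by phosphorylating the 4E-BP repressors and the S6 kinases, and in complex 2, which holds rictor, it phosphorylates AKT and SGK kinases. The TSC1-TSC2 complex keeps the small GTPase RHEB in its inactive state, and RHEB in its active state turns on complex 1. TOP mRNAs, which encode ribosomal proteins and translation factors, begin with a cytosine at the cap followed by an uninterrupted run of pyrimidines. LARP1 binds the cap and this run, holds TOP mRNAs in a stable and untranslated form, and is itself phosphorylated by mTOR complex 1. T cells leave quiescence through this pathway, which couples activation to ribosome production.

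A start of the TOP kind was looked for at the members' own annotated transcription starts. The windows below show the 20 bases before the RefSeq start in lower case and the 20 bases from the start onward in capitals, 5′ to 3′ on the gene's strand, from RefSeq on GRCm38.p6. They are given for the member that rose in Rnmt cKO cells (Larp1), for a pair of partners whose ratio separated the groups (Rptor and Rictor), for the member with the most negative fold change (Eif4ebp2), for Mtor, and for Rps6 as a ribosomal protein mRNA that is also an end point of the pathway.
Larp1, chr11:58009044-58009083, plus strand: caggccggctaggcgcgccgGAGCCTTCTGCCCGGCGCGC
Rptor, chr11:119602885-119602924, plus strand: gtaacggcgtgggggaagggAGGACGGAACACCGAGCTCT
Rictor, chr15:6708361-6708400, plus strand: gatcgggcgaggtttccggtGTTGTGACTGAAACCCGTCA
Eif4ebp2, chr10:61452650-61452689, minus strand: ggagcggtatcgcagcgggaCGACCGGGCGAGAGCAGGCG
Mtor, chr4:148448562-148448601, plus strand: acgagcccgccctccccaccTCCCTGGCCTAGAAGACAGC
Rps6, chr4:86857348-86857387, minus strand: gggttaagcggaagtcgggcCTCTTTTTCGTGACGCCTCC

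The feature searched for was a C at the annotated start followed by 4 bases that were each C or T, on the sense strand only. Of the 10 members, 9 had an entry in the table of starts, and 0 of these 9 held the feature. Only Eif4ebp2 and Rheb began with C, and their pyrimidine runs from the start were 1 and 2 bases long. The Mtor start opened on a run of 5 pyrimidines, but its first base was T. Rps6 began with C and a run of 9 pyrimidines. Among all entries, 823 of 32851 (2.51%) held the feature, and among cytoplasmic ribosomal protein genes 14 of 68 entries (20.6%) did, so that even in this family of TOP mRNAs most annotated starts did not carry the letters. Annotated starts can lie some bases away from the start used in a cell, and a missing match says only that these letters do not stand at this position.

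Of the 10 members, only Larp1 passed the threshold, an adjusted p under 0.05 over all genes, and its mRNA rose by 23.9% in Rnmt cKO cells. Protein was not measured in these libraries, and the study reports from western blots of naïve CD4 T cells that LARP1 was unaltered. The kinase itself, Mtor, had almost the same mean level in both groups. With Benjamini-Hochberg adjustment, the exact test of edgeR called 1 member higher and 0 lower, that is 10% of the members, where it called 14.8% of all genes tested (8.0% higher and 6.84% lower). At an unadjusted p under 0.05 the counts were also 1 higher and 0 lower, and edgeR's quasi-likelihood test and DESeq2 each called the same numbers. The median log2 fold change of the 10 members was 0.10 against 0.01 for all genes tested. Of the 10 values 7 lay above 0, where 6439 of the 12336 genes tested did. Levels did not overlap between groups for Larp1, Eif4ebp1 and Tsc2, all higher in Rnmt cKO cells, and no member was separated in the other direction. Over all genes, 31.4% were separated, 16.6% upward and 14.9% downward.

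**Figure D1:**
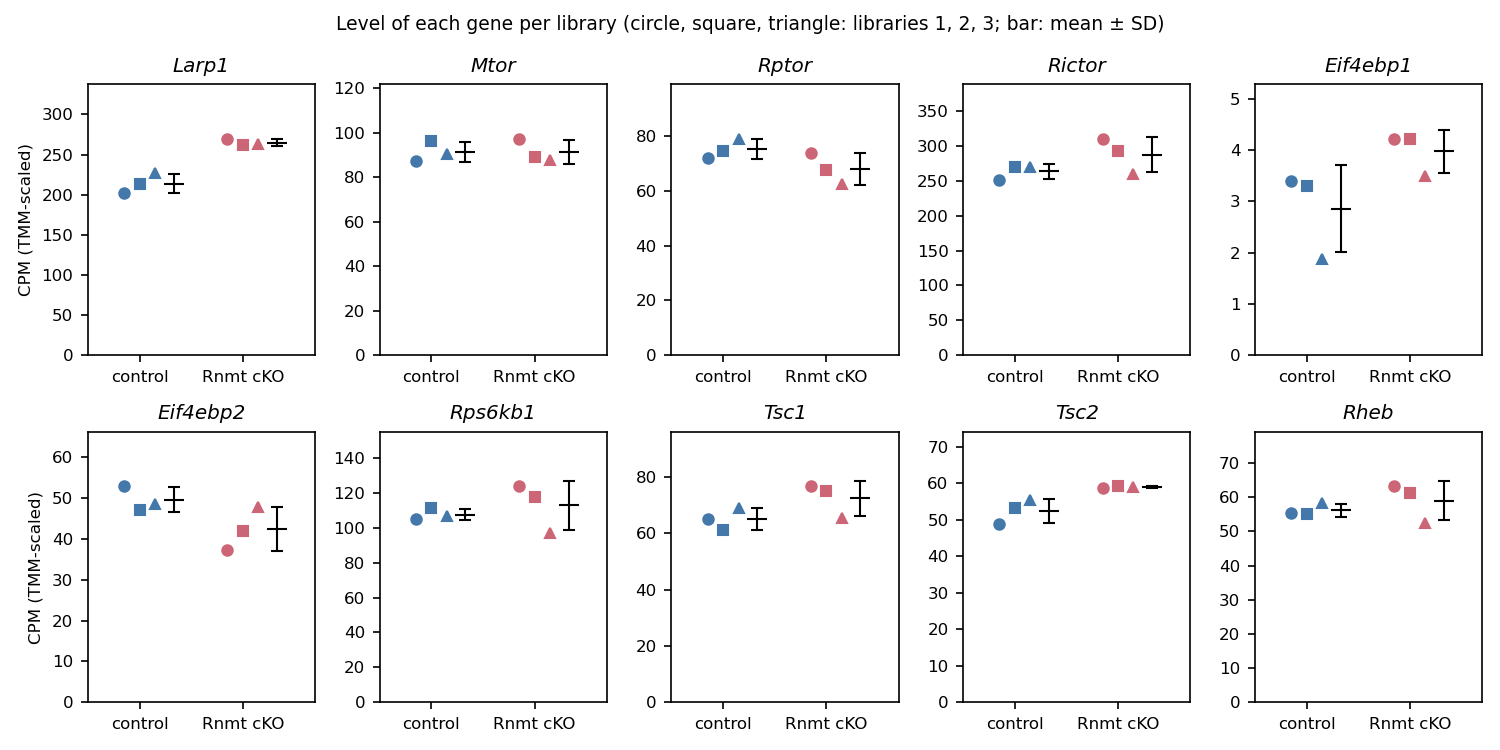
Level of each of the 10 genes in every library, in CPM (counts scaled to library size, with TMM factors) on a linear axis from 0, with circles, squares and triangles for libraries 1, 2 and 3 and bars for the mean ± SD of 3 libraries. The 3 Rnmt cKO libraries lie above the 3 controls for Larp1 (262 to 269.8 against 202 to 227 CPM), Eif4ebp1 and Tsc2, and the groups overlap for the other 7 genes.

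Facts of the libraries that touch these values are the following. Rnmt fell from 56.0 ± 3.94 to 35.3 ± 7.88 CPM (SD, n = 3), with a log2 fold change of -0.67 and an adjusted p of 0.00035, and all 3 Rnmt cKO libraries lay below all controls. These counts take in reads from every exon of the gene, so the remaining level does not measure how much functional RNMT was left. The study reports that reads over the floxed exon were lost and that RNMT protein was minimal in naïve Rnmt cKO cells. It also reports no detectable cap methyltransferase activity in extracts of Rnmt cKO T cells. The share of uniquely mapped reads outside annotated exons on the counted strand, which includes intronic reads, ranged from 36.1% to 46.1% over the control libraries and from 31.8% to 47.9% over the Rnmt cKO libraries, with Rnmt cKO 3 the lowest of all. The other members of its group had 46.5% or more. The labelled cell type was borne out by its defining markers, with Cd4 at 669 ± 16.7 and 853 ± 48.6 CPM, Cd3e at 151 ± 13.0 and 145 ± 9.24 CPM, and Cd8a at 2.86 ± 0.037 and 1.53 ± 0.51 CPM in control and Rnmt cKO cells. Summed markers of other cells moved with the group. B cell markers summed to 45.8 to 53.3 CPM in controls and 57.8 to 97.1 CPM in Rnmt cKO libraries (4 of 8 higher past the threshold), and myeloid markers to 8.28 to 10.6 and 17.1 to 33.9 CPM (2 of 5 tested higher). Proliferation genes summed to 69.5 to 85.9 CPM in controls and 340 to 379 CPM in Rnmt cKO libraries (12 of 12 higher), and CD8 markers fell (2 of 2). Of the activation and effector genes, 2 of 3 tested were lower, among them Cd44, whose protein was part of the sort gate (42.6 ± 9.32 and 20.5 ± 2.20 CPM, log2 fold change -1.05), while their summed level overlapped between groups. No marker was at 0 in all libraries. The part of these differences in the values below was not tested.

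Larp1 encodes the RNA-binding protein that recognises the TOP start and the cap. The gene (ENSMUSG00000037331) lies at chr11:58009064-58062034 on the plus strand of GRCm38 and has 6621 bases of annotated exon. It held 202, 213 and 227 CPM in controls 1, 2 and 3 and 269.8, 262 and 263 CPM in Rnmt cKO libraries 1, 2 and 3, from 1718 to 3107 counts each. Every Rnmt cKO library lay above every control, and the lowest of them exceeded the highest control by more than the range within the Rnmt cKO group. The means were 214 ± 12.4 and 265 ± 4.22 CPM (SD, n = 3), which gave a log2 fold change of 0.31 (SE 0.050, adjusted p 0.00933). The difference was 0.34 within the libraries with a low share of reads outside exons (controls 1 and 2 against Rnmt cKO 3) and 0.23 within those with a high share (control 3 against Rnmt cKO 1 and 2). With that share as a covariate in the quasi-likelihood fit it was 0.30, with an adjusted p of 0.00103, and without Rnmt cKO 3 it was 0.30, with an adjusted p of 0.00340.

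The size of the Larp1 difference was steadier than its call. Over 17 alternatives its log2 fold change lay between 0.27 and 0.43 and its adjusted p between 0.00092 and 0.119, with 12 of the 17 past the threshold. The call was lost without control 1 (log2 fold change 0.27, adjusted p 0.108), without control 2 (0.30, adjusted p 0.0911), without Rnmt cKO 1 (0.29, adjusted p 0.0680) and without Rnmt cKO 2 (0.31, adjusted p 0.0606). The remaining loss was in the fit with a replicate block (0.31, adjusted p 0.119).

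Larp1b, a related gene with the same RNA-binding domain family, had a level of 21.1 ± 4.24 CPM in the control group and of 22.9 ± 1.60 CPM in the Rnmt cKO group (SD, n = 3), and its log2 fold change of 0.12 did not pass the test (adjusted p 0.740). Per exon length, Larp1 exceeded Larp1b 7.21-fold in controls and 8.14-fold in Rnmt cKO cells. The log2 ratio of the pair came to 3.06, 2.84 and 2.64 for controls 1, 2 and 3, beside 3.08, 3.09 and 2.90 for Rnmt cKO 1, 2 and 3. These ranges overlapped, and the difference of 0.18 with a standard error of 0.13 gave an exact two-sided permutation p of 0.2 (0.333 adjusted over the 5 ratios compared here).

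The mRNAs that LARP1 binds were set beside it library by library. The 79 cytoplasmic ribosomal protein genes, which are TOP mRNAs, took 8.76%, 7.74% and 7.18% of counts in controls 1, 2 and 3, where Larp1 stood at 202, 213 and 227 CPM. They took 4.82%, 4.67% and 6.43% in Rnmt cKO libraries 1, 2 and 3, where Larp1 stood at 269.8, 262 and 263 CPM. The groups did not overlap in either measure, Larp1 being higher and the ribosomal protein sum lower in Rnmt cKO cells. Of all genes tested, 16.6% were separated upward and 14.9% downward. Within the Rnmt cKO group the ribosomal protein share spanned 4.67% to 6.43% while Larp1 spanned 262 to 269.8 CPM. The share of reads outside exons was 36.1%, 39.7% and 46.1% in controls 1, 2 and 3. In Rnmt cKO libraries 1, 2 and 3 it was 47.9%, 46.5% and 31.8%, and its part in both measures was not tested. The ribosomal protein genes were also summed in CPM. Their summed level averaged 82805 ± 11749 CPM in the control group and 51231 ± 11941 CPM in the Rnmt cKO group (SD, n = 3), a log2 ratio of -0.69.

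**Figure D2:**
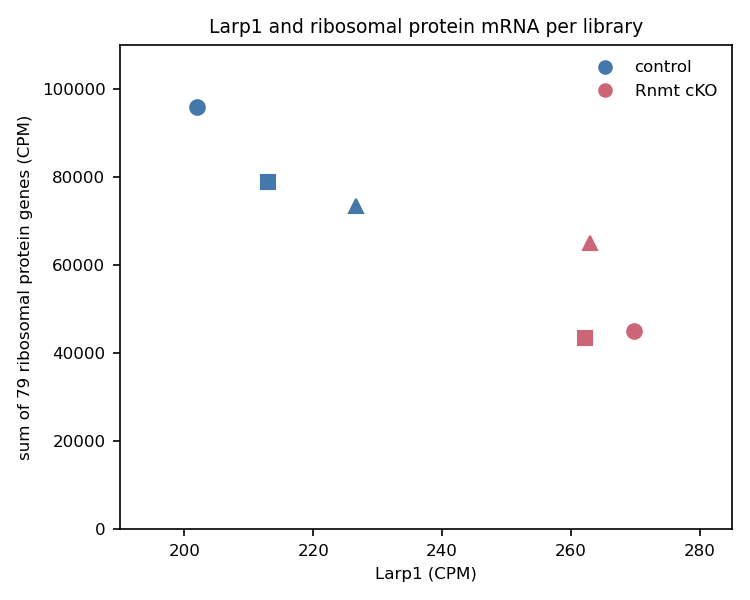
Larp1 level in CPM (horizontal axis, which does not start at 0) against the summed level of 79 cytoplasmic ribosomal protein genes in CPM (vertical axis, from 0), with 1 point per library and circles, squares and triangles for libraries 1, 2 and 3. The controls lie at 202 to 227 CPM of Larp1 with the higher sums, and the Rnmt cKO libraries at 262 to 269.8 CPM with the lower sums.

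The genes whose pattern across the 6 libraries was most like that of Larp1 were sought among 9704 genes with a mean of at least 5 CPM, by Pearson's r of log2 CPM. They were Inip, a subunit of a single-stranded DNA binding complex (r = 0.995), Trip4, a transcriptional coactivator (r = 0.994), and Tex10, a nuclear protein of ribosome maturation (r = 0.993). Inip rose from 46.0 to 60.0 CPM, Trip4 from 40.9 to 56.4 CPM and Tex10 from 62.3 to 80.3 CPM, each past the threshold. The 6 points are 3 libraries of each group, so that genes that differ between groups and vary little within them score high, and 4.21% of the genes compared had an r above 0.9. Without scaling beyond library size, 0 of these 3 were among the 3 most like Larp1. Of the other members, Tsc2 was the most like Larp1 (r = 0.956) and Eif4ebp2 the most unlike (r = -0.78).

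The catalytic subunit did not differ detectably. Mtor (ENSMUSG00000028991, chr4:148448611-148557683, plus strand, 8785 exon bases) held 87.3, 96.5 and 90.6 CPM in controls and 97.4, 89.1 and 87.8 CPM in Rnmt cKO libraries. The groups covered nearly the same range, with means of 91.5 ± 4.65 and 91.5 ± 5.21 CPM (SD, n = 3). This gave a log2 fold change of -0.0021 (SE 0.063, adjusted p 1). Its sign was not stable, being above 0 in 6 of 17 alternatives, for example 0.12 without scaling beyond library size, a setting that moved the median of all genes from 0.01 to 0.14. Relative to that median the value was -0.014 under either scaling.

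Rptor and Rictor encode the scaffold subunits that define mTOR complex 1 and complex 2. Rptor (ENSMUSG00000025583, chr11:119602905-119899576, plus strand) held 71.9, 74.7 and 79.2 CPM in controls and 74.0, 67.7 and 62.6 CPM in Rnmt cKO libraries. Rnmt cKO 1 lay among the controls, whereas Rnmt cKO 2 and 3 lay below them, and the log2 fold change of -0.15 (SE 0.080) did not pass the test (adjusted p 0.402). Rictor (ENSMUSG00000050310, chr15:6708379-6800401, plus strand) held 251, 270.4 and 269 CPM in controls and 311, 292 and 260.4 CPM in Rnmt cKO libraries. Here Rnmt cKO 1 and 2 lay above the controls and Rnmt cKO 3 among them, with a log2 fold change of 0.13 (SE 0.083, adjusted p 0.485).

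The ratio of the scaffolds varied less between libraries of a group than either gene did. Rnmt cKO 1 had the highest and Rnmt cKO 3 the lowest level of both genes in its group. The log2 ratio of Rptor to Rictor, per exon length, came to -1.30, -1.36 and -1.27 for controls 1, 2 and 3, beside -1.57, -1.61 and -1.56 for Rnmt cKO 1, 2 and 3. The ranges did not overlap, and the SD was 0.046 in controls and 0.028 in Rnmt cKO cells. The mean difference was -0.27 (SE 0.031), that is from 0.403 to 0.334 Rptor per Rictor, and it lay between -0.30 and -0.25 when any 1 library was left out. In the exact permutation test (two-sided) p was 0.1, below which 3 libraries against 3 cannot go, and 0.25 after Benjamini-Hochberg adjustment over the 5 ratios compared.

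**Figure D3:**
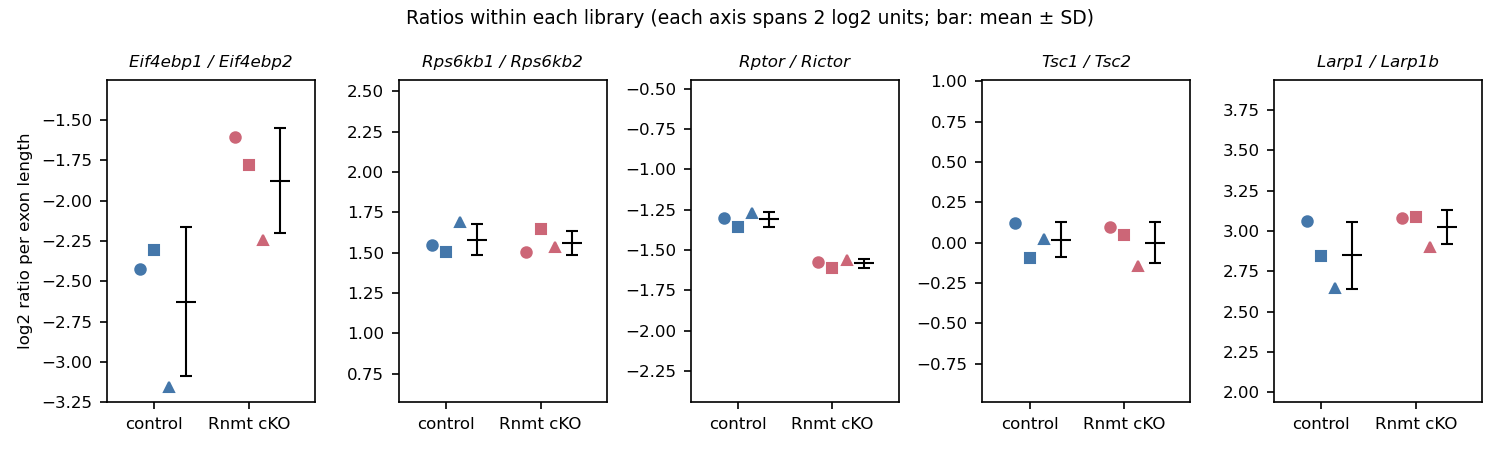
Log2 ratio of 5 pairs of genes within each library, per exon length, with circles, squares and triangles for libraries 1, 2 and 3 and bars for the mean ± SD of 3 libraries; each vertical axis spans 2 log2 units and none starts at 0. Groups are separated for Rptor to Rictor (-1.36 to -1.27 against -1.61 to -1.56) and, with a wide spread, for Eif4ebp1 to Eif4ebp2, and overlap for the other 3 pairs.

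The substrates of complex 1 that repress translation are the 4E-BP proteins, which hold the cap-binding factor eIF4E away from mRNA. Eif4ebp1 (ENSMUSG00000031490, chr8:27260329-27276674, plus strand) was the most weakly expressed member, with 29, 33 and 17 counts in controls and 40, 50 and 39 in Rnmt cKO libraries. Scaled, these were 3.41, 3.29 and 1.88 CPM and 4.23, 4.22 and 3.50 CPM, every Rnmt cKO library being above every control. Its log2 fold change of 0.47 was the largest among the members, but its standard error was 0.27 and it did not pass the test (adjusted p 0.326). Control 3 carried much of the difference, since without it the log2 fold change was 0.25 (adjusted p 0.754). The difference was 0.058 within the low-share libraries and 1.09 within the high-share libraries, the latter holding control 3.

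Eif4ebp2 (ENSMUSG00000020091, chr10:61428491-61452661, minus strand) was the more strongly expressed of the pair per exon length and stood at 52.9, 47.1 and 48.5 CPM in controls and 37.3, 41.9 and 47.9 CPM in Rnmt cKO libraries. Rnmt cKO 1 and 2 lay below the controls and Rnmt cKO 3 lay among them. The log2 fold change was -0.22 (SE 0.11) and did not pass the test (adjusted p 0.236). Without Rnmt cKO 3 it was -0.33 with an adjusted p of 0.0136, the only alternative of 17 in which a member was called lower. Within the libraries with a low share of reads outside exons the difference was -0.061, and within those with a high share it was -0.29.

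The balance of the 4E-BP forms, as the log2 ratio of Eif4ebp1 to Eif4ebp2 per exon length, came to -2.42, -2.30 and -3.16 for the controls beside -1.61, -1.78 and -2.24 for Rnmt cKO 1, 2 and 3. All 3 Rnmt cKO values lay above all controls, although the lowest, Rnmt cKO 3, was close to control 2. In linear terms Eif4ebp1 stood at 0.162 of Eif4ebp2 in controls and 0.272 in Rnmt cKO cells. The mean difference of 0.75 had a standard error of 0.33 and an exact two-sided permutation p of 0.1 (0.25 adjusted over 5 ratios), and it ran from 0.49 without control 3 to 0.93 without Rnmt cKO 3.

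Rps6kb1 encodes S6 kinase 1, which phosphorylates ribosomal protein S6. The gene (ENSMUSG00000020516, chr11:86498871-86544805, minus strand) held 105, 111 and 107 CPM in controls and 124, 117 and 97.2 CPM in Rnmt cKO libraries. Rnmt cKO 1 and 2 were the highest of the 6 libraries and Rnmt cKO 3 the lowest, so that the SD was 3.19 CPM over the control libraries and 13.9 CPM over the Rnmt cKO libraries (n = 3 each). The log2 fold change of 0.07 (SE 0.11, adjusted p 0.779) took the sign of the libraries compared, being -0.15 within the low-share libraries, 0.18 within the high-share libraries and -0.0051 without Rnmt cKO 1. Its relative Rps6kb2, which encodes S6 kinase 2, stood at 20.6 ± 1.74 and 21.8 ± 2.90 CPM, and the log2 ratio of the pair per exon length was 1.58 ± 0.097 in controls and 1.56 ± 0.074 in Rnmt cKO cells (SD, n = 3; exact permutation p 0.7, adjusted 0.8). Opposite-strand reads came to 4.07% at Rps6kb1, which shares 155 exon bases with Rnft1 on the other strand.

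Tsc1 and Tsc2 encode hamartin and tuberin, the complex that holds RHEB inactive. Tsc1 (ENSMUSG00000026812, chr2:28641228-28691167, plus strand) held 65.1, 61.0 and 68.8 CPM in controls and 76.7, 74.9 and 65.3 CPM in Rnmt cKO libraries. Only Rnmt cKO 3 lay among the controls, and the log2 fold change was 0.15 (SE 0.088, adjusted p 0.381). Tsc2 (ENSMUSG00000002496, chr17:24595816-24632630, minus strand) held 48.9, 53.3 and 55.3 CPM in controls and 58.8, 59.3 and 59.1 CPM in Rnmt cKO libraries. The Rnmt cKO libraries were all above the controls and nearly identical, with a log2 fold change of 0.17 (SE 0.053) that did not pass the test (adjusted p 0.292, and 0.0502 to 0.646 over the alternatives).

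The end of Tsc2 overlaps that of Pkd1 on the opposite strand over 693 exon bases, 10.9% of its exons, and 18.4% of the reads over Tsc2 lay on the opposite strand, against under 0.7% for the 8 members other than Tsc2 and Rps6kb1. The counts used here were of the sense strand. Levels of Tsc1 and Tsc2 per exon length were close to equal, with 1.01 Tsc1 per Tsc2 in controls and 1.00 in Rnmt cKO cells, and the log2 ratio differed by -0.018 (SE 0.097, exact permutation p 0.8, adjusted 0.8).

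Rheb (ENSMUSG00000028945, chr5:24802823-24842624, minus strand, 1784 exon bases) encodes the GTPase that activates complex 1. It held 55.3, 55.0 and 58.3 CPM in controls and 63.3, 61.2 and 52.5 CPM in Rnmt cKO libraries. As for Rps6kb1, Rnmt cKO 1 and 2 were the highest libraries and Rnmt cKO 3 the lowest. The log2 fold change was 0.07 (SE 0.087, adjusted p 0.770), and it was -0.070 within the low-share libraries and 0.093 within the high-share libraries.

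Levels can be set in order only per exon length, as RPKM, which divides the scaled counts by exon length in kilobases. In controls Larp1 was the highest at 32.3 ± 1.87, followed by Rheb at 31.5 ± 1.04 and Rictor at 28.3 ± 1.19 RPKM (SD, n = 3). Rps6kb1 at 13.4 ± 0.40, Rptor at 11.4 ± 0.56 and Mtor at 10.4 ± 0.53 RPKM formed the middle. Eif4ebp2 at 8.56 ± 0.52, Tsc1 at 8.39 ± 0.51 and Tsc2 at 8.29 ± 0.52 RPKM lay close together, far above Eif4ebp1 at 1.43 ± 0.43 RPKM. Control libraries overlapped between Larp1 and Rheb, Rptor and Mtor, Eif4ebp2 and Tsc1, and Tsc1 and Tsc2, and were apart for the remaining neighbours. In Rnmt cKO cells Larp1 at 40.0 ± 0.64 RPKM no longer overlapped Rheb at 33.1 ± 3.20 RPKM, and Eif4ebp2 at 7.32 ± 0.92 RPKM moved from rank 7 to rank 9, below Tsc1 at 9.34 ± 0.79 and Tsc2 at 9.32 ± 0.044 RPKM.

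**Figure D4:**
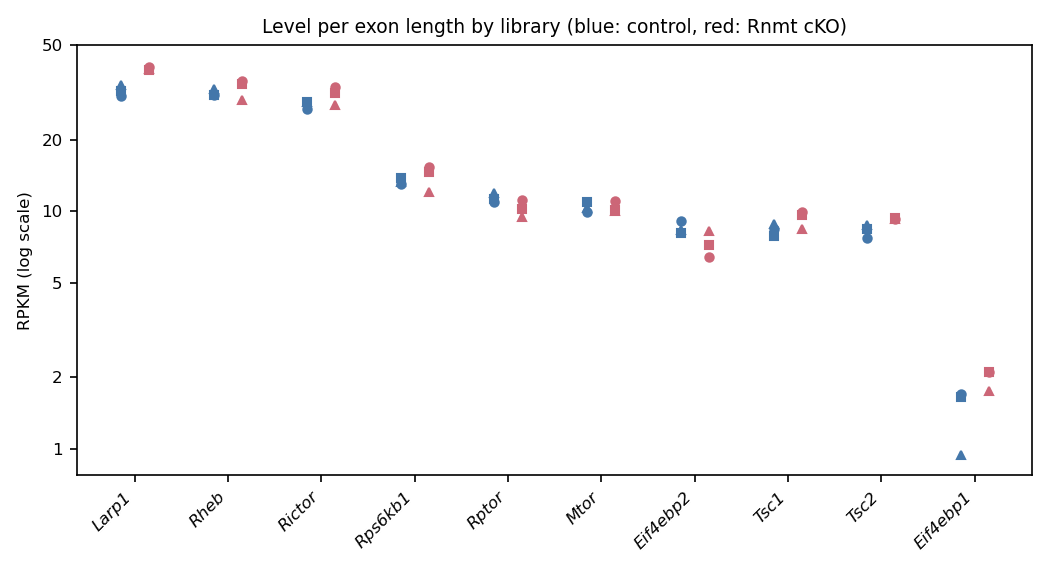
Level per exon length of the 10 genes in RPKM on a log axis, ordered by the control mean, with 1 point per library (blue for control, red for Rnmt cKO; circles, squares and triangles for libraries 1, 2 and 3). Larp1, Rheb and Rictor stand at 26.9 to 40.7 RPKM, Eif4ebp1 at 0.94 to 2.12 RPKM, and Larp1 alone of the upper 3 shows separated groups.

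Rnmt cKO 3 had the lowest level of its group for Rptor, Rictor, Eif4ebp1, Rps6kb1, Tsc1, Rheb and Mtor, and the highest for Eif4ebp2. This library also had the lowest share of reads outside exons of all 6. Without it, Larp1 remained the only member called higher, Eif4ebp2 was called lower, and the log2 fold changes of Rictor (0.18), Rps6kb1 (0.15), Tsc1 (0.21) and Rheb (0.13) were larger but not past the threshold. Within the low-share and the high-share libraries, the differences were -0.23 and -0.16 for Rptor, 0.00022 and 0.16 for Rictor, 0.052 and 0.14 for Tsc1, and 0.21 and 0.093 for Tsc2.

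Other genes of the pathway were taken from a list of 87 by role, of which 82 were tested. The exact test called 8 higher and 4 lower, 14.6% of those tested, where 14.8% of all genes were called, and their median log2 fold change was 0.05. Among complex subunits and assembly factors 1 of 7 tested genes (14.3%) passed, Mapkap1, which encodes the mSIN1 subunit of complex 2. It fell from 61.8 ± 1.45 to 48.7 ± 4.82 CPM (SD, n = 3), with a log2 fold change of -0.34 (adjusted p 0.0135). The partners of the TSC complex and RHEB did not pass: Tbc1d7, a further subunit of the TSC complex, stood at 2.85 ± 0.43 and 4.32 ± 0.38 CPM (log2 fold change 0.60, adjusted p 0.110), and Rhebl1 at 4.91 ± 0.99 and 5.22 ± 0.80 CPM.

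Amino acid sensing at the lysosome gave 3 rises and 1 fall among 29 tested genes, 13.8% called beside 14.8% of all genes tested. Rragd, a Rag GTPase that recruits complex 1 to the lysosome, rose from 7.56 ± 1.39 to 15.2 ± 2.17 CPM (log2 fold change 1.00, adjusted p 1.44e-05). Wdr24 and Wdr59 encode subunits of the same complex, GATOR2, and passed the test in opposite directions. Wdr24 rose from 29.7 ± 1.85 to 39.9 ± 2.76 CPM (log2 fold change 0.43, adjusted p 0.00323), and Wdr59 fell from 27.0 ± 4.24 to 17.8 ± 1.57 CPM (-0.60, adjusted p 0.00129). Gatsl3, which encodes the arginine sensor CASTOR1, rose from 11.2 ± 0.43 to 15.5 ± 2.56 CPM (0.47, adjusted p 0.0488).

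Upstream of mTOR, 3 of 17 tested genes rose and 0 fell past the threshold, 17.6% called beside 14.8% of all genes tested. Pik3cd, the main catalytic PI3-kinase subunit of lymphocytes, rose from 628 ± 33.1 to 829.8 ± 54.1 CPM (log2 fold change 0.40, adjusted p 0.00158). Akt2, an AKT kinase that complex 2 phosphorylates, rose from 128 ± 5.36 to 164 ± 14.4 CPM (0.35, adjusted p 0.00465).

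Downstream, 1 of 16 tested substrates and effectors rose and 1 fell, 12.5% called beside 14.8% of all genes tested. Sgk1, a kinase phosphorylated by complex 2, rose from 67.0 ± 7.01 to 114 ± 7.33 CPM (log2 fold change 0.77, adjusted p 8.17e-11). Rps6, the S6 kinase target and itself a ribosomal protein gene with the TOP start printed above, held 987, 862 and 774 CPM in controls and 450.5, 447 and 614 CPM in Rnmt cKO libraries, a log2 fold change of -0.80 (adjusted p 2.5e-06). Among 11 other RNA-binding proteins and kinases tied to TOP mRNAs, 1 rose and 1 fell, 18.2% called beside the same 14.8%. Pabpc1, the cytoplasmic poly(A)-binding protein that is also encoded by a TOP mRNA, fell from 744 ± 51.0 to 508 ± 58.4 CPM (-0.55, adjusted p 5.17e-05). Cdk1, a cell cycle kinase, rose from 0.98 ± 0.21 to 5.12 ± 0.33 CPM (2.38, adjusted p 1.2e-12). Cdk1 is also on the list of proliferation genes, of which 12 of 12 were higher, and the part of cycling cells in its value was not tested.

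**Figure D5:**
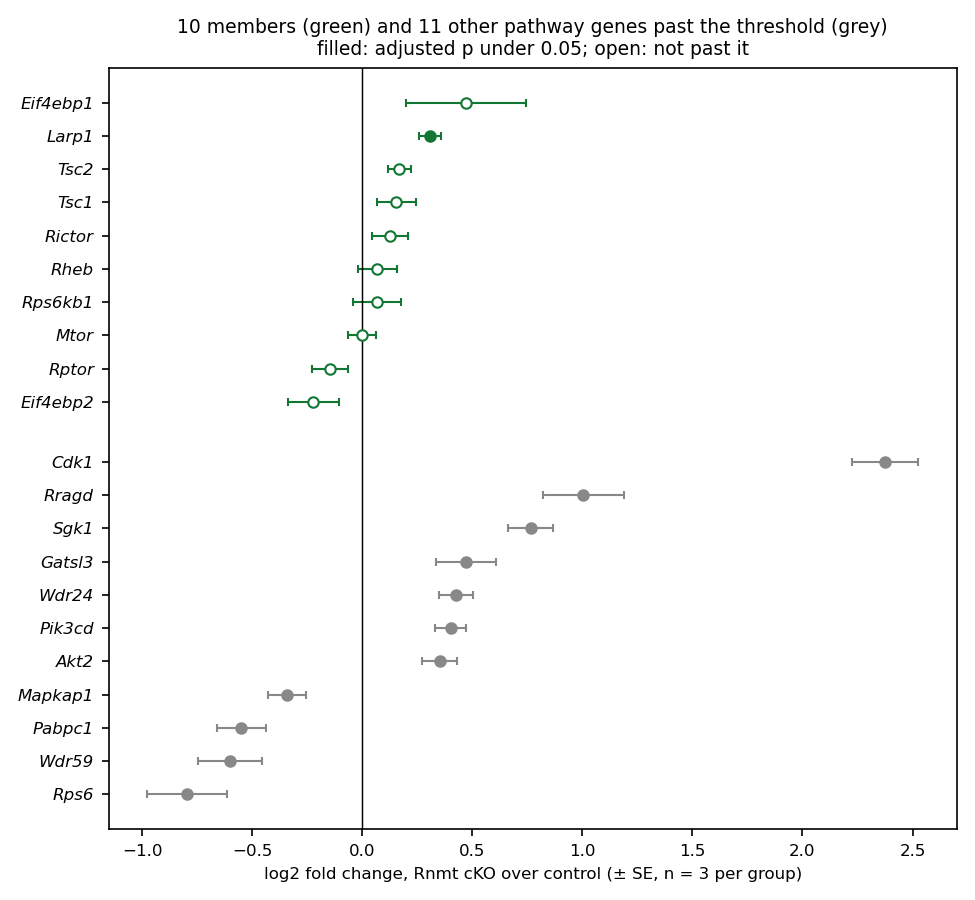
Log2 fold change of Rnmt cKO over control with its standard error (n = 3 per group) for the 10 members in green and 11 other pathway genes past the threshold in grey; filled points are past an adjusted p of 0.05 over all genes. Larp1 is the only filled member (0.31), and the other pathway genes shown run from -0.80 (Rps6) to 2.38 (Cdk1).

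The calls named here differed in how they held when the processing changed. Rragd, Sgk1, Rps6 and Pabpc1 passed the threshold in all 17 alternatives, and Cdk1 in all 15 in which it was tested. Pik3cd, Wdr24 and Wdr59 each passed in 16 of 17. In each case the loss was in the fit with a replicate block. Akt2 passed in 14 of 17 and was lost under the block, without control 2 (adjusted p 0.0631) and without control 3 (0.0509). Mapkap1 passed in 11 and was lost under the block, without control 1 (0.0838), control 2 (0.0610), control 3 (0.0669) and Rnmt cKO 1 (0.131), and without scaling (0.144). Gatsl3 passed in only 4 and was lost whichever library was left out (adjusted p 0.0560 to 0.210), and also under the block, both other tests, RLE and upper quartile scaling, no filter and counts of either strand.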

How the data were processed

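The authors aligned paired-end reads to mm10 (GRCm38) with STAR 2.5.2b, using the basic set of GENCODE vM12, and the deposited tables give unnormalized counts per gene of uniquely mapped fragments, on either and on each strand, for every library. Sense-strand counts were used here. Of the lines in each table, 4 name no gene (unmapped, multimapping, no exon, ambiguous) and stayed out of library sizes. The authors also deposited a table of an edgeR comparison with fold changes and p-values, in which 11221 genes each have a normalized signal per sample. It gave gene symbols, and its signal columns served only to check that sense counts divided by 1 constant per library return them, which held for 100% of genes to within 0.5 read. Its fold changes and p-values were not used.

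Genes above 1 CPM in at least 3 of 6 samples were tested with the exact test of edgeR 4.0.16 in R 4.3.3, with TMM scaling, tagwise dispersions and Benjamini-Hochberg adjustment, as the study's methods name this test. Standard errors came from log2 CPM per library with a prior count of 2. Ratios within a library were compared with exact two-sided permutation tests (scipy 1.17.1). Alternatives were the quasi-likelihood test, DESeq2 1.42.0, other scalings, filters and strands, a replicate block, a covariate, and leaving out each library; separate values within the libraries above and below a 42% share of reads outside exons were added after seeing the data. Within groups, no pair of libraries agreed within sampling noise (chi-square per degree of freedom 3.63 to 22.9), and each counted as a replicate. The code was tested on simulated data. Coordinates and exon lengths came from GENCODE vM21 (46488 of 46983 identifiers matched) and start sequences from RefSeq.

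The members and gene lists were chosen with earlier results of these data known. Named besides the members were Rnmt, the listed pathway genes past the threshold (at most 20; of these, 1 is not reported here), the partners in the ratios, and the 3 genes most correlated with Larp1. The marker genes given to describe the libraries, and Tbc1d7 and Rhebl1, were named after their values were seen.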

Additional observations from a re-analysis of the deposited data

How the results depend on the processing

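Larp1 kept its direction in all 17 alternatives and Mtor did not. The log2 fold change of Mtor was above 0 without scaling (0.12), with no filter on low counts (0.0011), with 1 CPM exceeded in every library (0.0024), without control 2 (0.038), without Rnmt cKO 2 (0.011), without Rnmt cKO 3 (0.0074) and within the high-share libraries (0.041), and with 1 library left out it ran from -0.050 to 0.038. That of Rps6kb1 was -0.0051 without Rnmt cKO 1, 0.15 without Rnmt cKO 3 and -0.15 within the low-share libraries, and that of Rheb was -0.070 there. When each library was left out in turn, 0 to 1 members were called higher and 0 to 1 lower, 5 to 8 pathway genes higher and 3 to 5 lower, and 643 to 1221 of all genes higher and 547 to 1285 lower, against 987 and 844 with all 6 libraries. The ratio difference of Rps6kb1 to Rps6kb2 then ran from -0.062 to 0.034 (0.034 without control 3, 0.0078 without Rnmt cKO 1) and that of Tsc1 to Tsc2 from -0.075 to 0.054 (0.035 without control 1, 0.054 without Rnmt cKO 3). Without scaling, 535 genes were lower and 1938 higher and 17 pathway genes were higher; relative to the shifted median, Larp1 was at 0.30 under either scaling, and 0 of the 3 genes most like Larp1 were shared. With the share of reads outside exons as a covariate, 1466 genes were lower and 1696 higher, and 16 pathway genes were higher. The causes were not tested.

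The labels do not say whether the replicate numbers pair the libraries. Deviations from group means correlated at -0.21, -0.016 and -0.35 for same-numbered libraries, and at -0.29 to 0.35 for differently numbered ones. Deviations from a mean of 3 libraries depend on one another, so these values cannot exclude a pairing. A quasi-likelihood fit with the replicate number as a block called 276 genes lower and 431 higher, 0 members higher (Larp1 0.31, adjusted p 0.119), and 2 pathway genes lower and 3 higher. Depth limited Eif4ebp1 most, with 17 to 50 counts per library.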
